A study of Mus musculus with 6 samples.

Results

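The genes described here are 10 components of fibroblast growth factor (FGF) signalling: the ligand Fgf4, the receptors Fgfr1, Fgfr2, Fgfr3 and Fgfr4, the adaptor Grb2, the inhibitors Spry2, Spry4 and Dusp6, and the transcription factor Etv5. They were taken by gene name from the non-control spots of 6 single-colour mouse expression arrays. Of the 10 genes, 9 had a probe, and these 9 were read by 22 of the 41174 probes and 40 of the 43379 spots. No probe carried the name or a RefSeq accession of Fgf4, which is therefore not analysed here. The arrays came from blastocysts and ooplasts of B6C3 F1 mice in 2 age classes, labelled climacteric and young. Climacteric blastocysts had 2 arrays, young blastocysts had 2, climacteric ooplasts had 1 and young ooplasts had 1. An ooplast is an oocyte without its chromosomes, the recipient used in nuclear transfer, and a blastocyst is the embryo shortly before implantation. The series title concerns reprogramming of somatic nuclei by oocytes late in reproductive life. The labels used here give the ages as words only, do not say how the blastocysts were made, and do not say how many oocytes or embryos were pooled on an array. Replicates are called biological, with no animal named, and a p-value here reflects only how far these samples spread.

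FGF ligands bind receptor tyrosine kinases together with heparan sulphate, and the activated receptor recruits Frs2 and Grb2 to start the Ras and MAP kinase cascade. The cascade induces Ets-family factors such as Etv5 and, as negative feedback, the Sprouty proteins and the ERK phosphatase Dusp6. In the mouse blastocyst, Fgf4 from the epiblast acts through Fgfr1 and Fgfr2 to direct neighbouring inner cells to primitive endoderm, and it keeps trophoblast stem cells dividing. Grb2 is needed for primitive endoderm in the mouse embryo.

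Spots well above background made up 57.3% and 54.9% of all spots on the climacteric blastocyst arrays, 49.9% and 52.7% on the young blastocyst arrays, 42.2% on the climacteric ooplast array and 42.4% on the young ooplast array. The number of arrays limits the precision, and each ooplast group is a single array. Replicate 1 of either blastocyst group was on the slide that also held the ooplast arrays, and both second replicates lay on another. Of 7 trophectoderm markers, 7 were well above background on every blastocyst array, against 4 in climacteric and 5 in young ooplasts. Of 5 inner cell mass markers, 5 were well above background on every blastocyst array and 3 on each ooplast array, where Nanog and Sox2 were not, and their summed level was 5.23 to 6.44 in blastocysts, against 6.71 in climacteric and 6.18 in young ooplasts. Of 6 primitive endoderm markers, 4 to 6 were above background on each blastocyst array and 4 on each ooplast array. All 9 oocyte markers were detected on both ooplast arrays, and 4 to 5 of the 9 were detected on each blastocyst array. Of 10 cumulus and granulosa markers, 6 to 7 were well above background on each blastocyst array and 7 on each ooplast array. Their summed level was 4.46 to 4.70 in blastocysts, against 6.46 in climacteric and 6.51 in young ooplasts. Cyp19a1 made up most of the ooplast sums, at 6.22 in climacteric and 6.30 in young, while Inhbb and Amhr2 were higher in blastocysts.

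The level of a probe is given as log2 of its processed signal minus the 75th percentile of its array, so that a level of 0 is that percentile. That percentile was a signal of 1064 and 852 in climacteric blastocysts and 721 and 1111 in young blastocysts. In ooplasts it was lower, at 238 in climacteric and 235 in young. A lower level in blastocysts can therefore go with a signal that is not lower. Levels of different probes or genes are not comparable, because each probe binds with its own strength. Of the 22 probes, 9 were well above background on every array, 6 on all 4 blastocyst arrays and on neither ooplast array, and 1 on all 4 blastocyst arrays and 1 ooplast array. A further 3 were above background on 1 to 3 blastocyst arrays and on neither ooplast array, and 3 on none. The brightest probe over the 6 arrays stood for its gene. In blastocysts against ooplasts, 8 of the genes were tested, and limma with Benjamini-Hochberg adjustment at 0.05 placed 7 higher (Dusp6, Etv5, Fgfr2, Fgfr3, Fgfr4, Grb2 and Spry2) and 1 lower (Fgfr1). Over all 15604 genes tested, 35.5% were called higher, 39.0% lower and 74.5% either way, so a call by itself says little in this comparison. The probes of Etv5, Fgfr2, Fgfr3 and Spry2 entered the test only through the blastocyst arrays, which favours a higher level there, so their calls add no support. The median difference over all tested genes was -0.26 on the log2 scale, and it ranged between -0.45 and -0.14 with other scalings of the arrays. In these bulk samples, fewer cells of a type and less RNA per cell cannot be told apart.

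**Figure D1:**
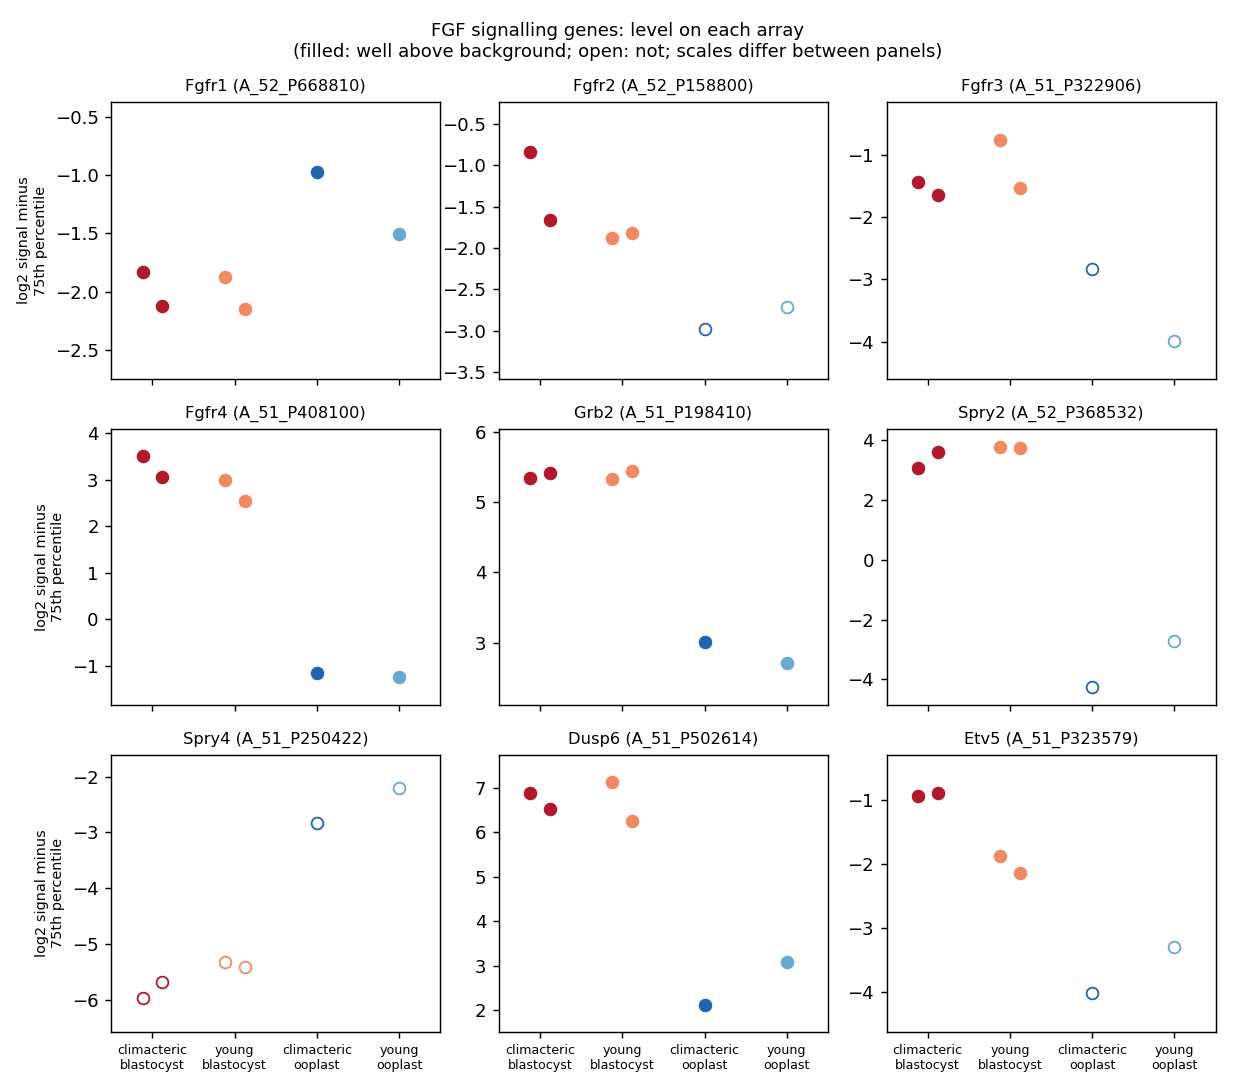
Level of 9 FGF signalling genes on each of the 6 arrays (y axis, log2 signal minus the 75th percentile of the array), 1 panel per gene with its own scale; each point is 1 array. Dusp6, Fgfr4 and Grb2 lie higher in all 4 blastocyst arrays than in both ooplast arrays with every point filled (well above background), Fgfr1 lies lower, and Spry4 is open throughout.

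Fgfr4 was higher in blastocysts on 1 of its 3 probes. It is the receptor that, with the co-receptor Klb, answers endocrine FGFs in liver. Its brightest probe, A_51_P408100 (chr13:55178238-55178297 in the files' mm8 coordinates, plus strand), read 3.50 and 3.06 in climacteric blastocysts, 2.98 and 2.54 in young blastocysts, -1.15 in climacteric ooplasts and -1.26 in young ooplasts. The mean level was 3.02 ± 0.39 in blastocysts (SD, n = 4) and -1.20 ± 0.07 in ooplasts (SD, n = 2). The groups were far apart, with a log2 difference of 4.22 ± 0.29 (SE), or 18.7-fold, and an adjusted p of 3.93e-05. Without any 1 array the fold lay between 16.2 and 21.5. The other probes of Fgfr4 did not show this. On the genome A_51_P408100 lies 752 bases downstream of A_52_P686383, and A_52_P144363 lies between them. A_52_P144363 read -0.57 and 0.03 in climacteric blastocysts, -1.20 and -0.64 in young blastocysts, -0.97 in climacteric ooplasts and -0.62 in young ooplasts. There the stages overlapped, and the difference was 0.20 ± 0.37 (adjusted p = 0.637 over all probes). A_52_P686383 averaged -2.17 ± 0.24 in blastocysts (SD, n = 4) and -1.62 ± 0.22 in ooplasts (SD, n = 2), a difference of -0.55 ± 0.26 (adjusted p = 0.0902) with the levels of all blastocyst arrays below both ooplast arrays. Its signals before scaling were higher in blastocysts, at 298 and 189 in climacteric and 147 and 213 in young. Ooplast signals of that probe were 86.1 in climacteric and 69.0 in young. Averaging the 3 probes left a difference of 1.29 for Fgfr4, so its size depended on which probe was read.

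Fgfr1, the receptor present throughout the mouse inner cell mass, was the 1 gene called lower. Its brightest probe, A_52_P668810 (chr8:27039136-27039195, plus strand), read -1.83 and -2.12 in climacteric blastocysts, -1.87 and -2.15 in young blastocysts, -0.97 in climacteric ooplasts and -1.50 in young ooplasts. The levels of all blastocyst arrays lay below both ooplast arrays, by -0.76 ± 0.27 (adjusted p = 0.041). The signals before scaling were higher in blastocysts, at 299 and 196 in climacteric and 197 and 251 in young. Ooplast signals were 121 in climacteric and 83.2 in young, so the lower level of A_52_P668810 rests on the scaling. A_51_P109469, which shares 39 bases of genome with it and so is not a separate reading, averaged -2.51 ± 0.20 in blastocysts (SD, n = 4) and -1.59 ± 0.24 in ooplasts (SD, n = 2). Its difference was -0.92 ± 0.28 (adjusted p = 0.0234). That probe had 10 spots per array, and they spread by an SD of 0.053 to 0.212 within an array, against 0.20 between the blastocyst arrays. The Fgfr1 call was lost when climacteric blastocyst replicate 1 or 2, young blastocyst replicate 2, the climacteric ooplast array or the young ooplast array was left out, and the difference was nearest to 0 without the climacteric ooplast array (-0.51, adjusted p = 0.276). It was also lost under quantile normalization (-0.56, adjusted p = 0.108) and with slide as a block (-0.61, adjusted p = 0.130). The other 2 probes of Fgfr1 were above background on 2 and 3 blastocyst arrays and on neither ooplast array, and were not tested by stage.

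Fgfr2 is the receptor of trophectoderm and primitive endoderm in the mouse blastocyst. Its brightest probe, A_52_P158800 (chr7:130033600-130033659, minus strand), read -0.83 and -1.66 in climacteric blastocysts, -1.88 and -1.81 in young blastocysts, -2.98 in climacteric ooplasts and -2.71 in young ooplasts. Every blastocyst array was well above background and both ooplast arrays were not, so only a bound can be given. A bound sets the mean of the brighter stage against the lowest signal that counted as well above background on each dimmer array, or the probe's own signal where that was higher. By this measure Fgfr2 was at least 1.51-fold higher in blastocysts (measured means -1.55 in blastocysts and -2.85 in ooplasts, adjusted p = 0.015). A_51_P432403, 78511 bases downstream and printed 10 times per array, read -1.55 and -1.06 in climacteric blastocysts, -0.71 and -1.08 in young blastocysts, -4.16 in climacteric ooplasts and -4.35 in young ooplasts. It gave at least 2.06-fold higher (means -1.10 in blastocysts and -4.25 in ooplasts, adjusted p = 0.0002). Its 10 spots had an SD of 0.075 to 0.173 within an array, against 0.35 between the blastocyst arrays. The last probe, A_52_P363110, did not separate the stages, at 0.35 ± 0.31 (adjusted p = 0.335). The call on the brightest Fgfr2 probe was lost without the climacteric ooplast array (0.86, adjusted p = 0.154).

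Fgfr3 is a receptor best known for restraining bone growth. Its probe A_51_P322906 (chr5:34053107-34053166, plus strand) read -1.44 and -1.64 in climacteric blastocysts, -0.76 and -1.53 in young blastocysts, -2.84 in climacteric ooplasts and -3.99 in young ooplasts. It was well above background on the blastocyst arrays only, which gave at least 1.74-fold higher in blastocysts (means -1.34 in blastocysts and -3.42 in ooplasts, adjusted p = 0.0052). A_52_P506516, sharing 37 bases with it, was likewise above background on the 4 blastocyst arrays only, and it was too dim for a bound, so no fold is given. The remaining probe of Fgfr3 was at background on all 6 arrays. The fitted Fgfr3 difference of 2.07 ± 0.43 became 2.85 without the climacteric ooplast array, and 1.30 without the young ooplast array, where the call was lost (adjusted p = 0.0503).

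**Figure D2:**
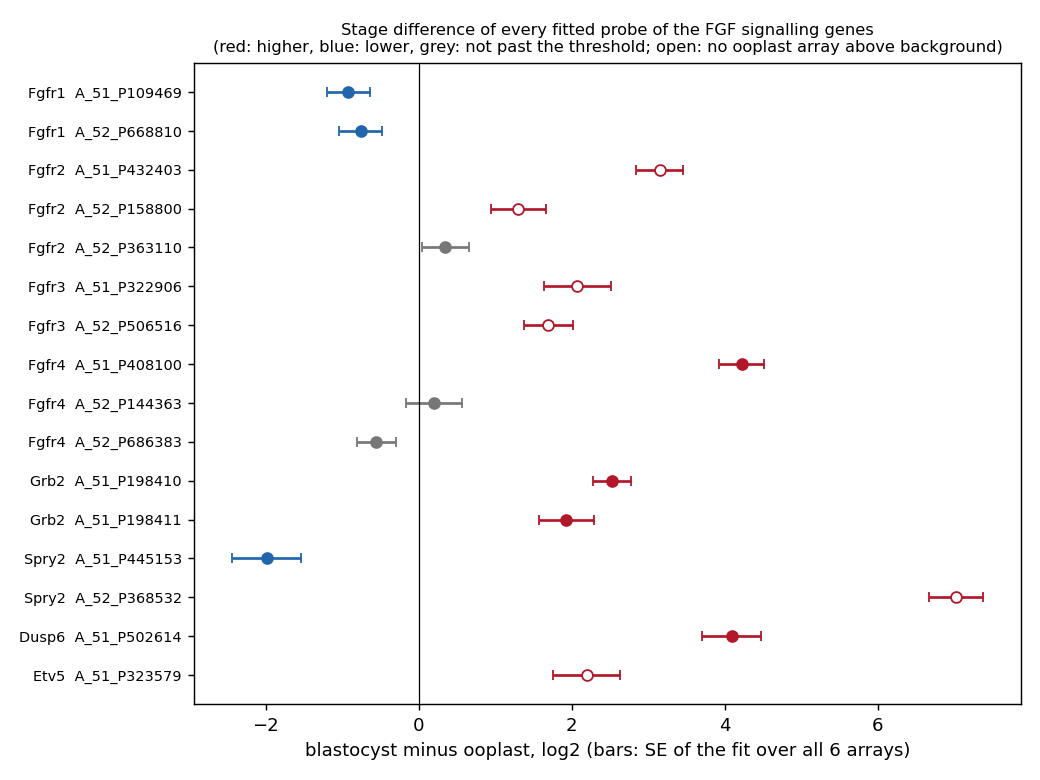
Difference between stages (x axis, blastocyst minus ooplast, log2) for each of the 16 fitted probes of the FGF signalling genes, with bars of 1 SE from the fit over all 6 arrays. Of these, 10 were higher, 3 lower and 3 not past the threshold, and the probes of Fgfr2, Fgfr4 and Spry2 did not fall together.

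Grb2, the adaptor that links activated receptors to the Ras exchange factor Sos1, was higher in blastocysts on both of its probes. A_51_P198410 (chr11:115460293-115460352, minus strand) read 5.35 and 5.42 in climacteric blastocysts, 5.33 and 5.45 in young blastocysts, 3.01 in climacteric ooplasts and 2.71 in young ooplasts. The mean was 5.39 ± 0.06 in blastocysts (SD, n = 4) and 2.86 ± 0.21 in ooplasts (SD, n = 2). Blastocysts were higher by 2.53 ± 0.24, or 5.76-fold, with an adjusted p of 0.000149. The second Grb2 probe, A_51_P198411, lies 88 bases downstream and gave 1.93 ± 0.36 (adjusted p = 0.0030). Both Grb2 probes thus separated the stages in the same direction, and the fold on the first was 5.18 to 6.41 without any 1 array.

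Dusp6, the cytoplasmic phosphatase of ERK and a feedback inhibitor of the pathway, was far brighter in blastocysts. It had processed signals of 125766 and 77984 in climacteric blastocysts, 101561 and 84791 in young blastocysts, 1032 in climacteric ooplasts and 2009 in young ooplasts. As levels of probe A_51_P502614 (chr10:98697039-98697098, plus strand) these were 6.88 and 6.52 in climacteric blastocysts, 7.14 and 6.25 in young blastocysts, 2.12 in climacteric ooplasts and 3.09 in young ooplasts. The stages did not overlap, and Dusp6 was 17.1-fold higher in blastocysts (4.09 ± 0.38 on the log2 scale, adjusted p = 0.000138). The mean was 6.70 ± 0.39 in blastocysts (SD, n = 4) and 2.61 ± 0.69 in ooplasts (SD, n = 2). The fold was 12.1 to 24.0 without any 1 array.

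Spry2, a Sprouty protein that restrains signalling from receptor to Ras, had probes that pointed in opposite directions. A_52_P368532 (chr14:104777767-104777826, minus strand) had signals of 8938 and 10202 in climacteric blastocysts, 9878 and 14645 in young blastocysts, 12.4 in climacteric ooplasts and 35.9 in young ooplasts. Both ooplast signals were not well above background, and Spry2 by this probe was at least 51.2-fold higher in blastocysts (mean levels 3.54 in blastocysts and -3.49 in ooplasts, adjusted p = 1.52e-05). A_51_P445153, which lies 516 bases upstream, read -0.90 and -0.28 in climacteric blastocysts, -0.79 and -1.92 in young blastocysts, 0.84 in climacteric ooplasts and 1.19 in young ooplasts. It was well above background on all 6 arrays, and its level was lower in every blastocyst array than in either ooplast array. The difference was -1.99 ± 0.45 (adjusted p = 0.0073), or 3.96-fold. Its signals before scaling overlapped, at 572 and 700 in climacteric blastocysts and 418 and 293 in young blastocysts. They were 425 in climacteric ooplasts and 536 in young ooplasts, so this direction rests on the scaling. Probe sequences were not used here, and which transcript ends the Spry2 probes read was not tested. The average over both Spry2 probes was 2.52, in the direction of the brighter probe.

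Spry4, another Sprouty gene that mouse embryo cells induce under FGF, was not measured. Both of its probes were not well above background on any of the 6 arrays, with signals of 10.2 to 50.8, and no level can be compared. The position of its probes is not given.

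Etv5, an Ets factor induced by FGF and ERK signalling, was detected on all 4 blastocyst arrays. A_51_P323579 (chr16:22298589-22298648, minus strand) read -0.95 and -0.90 in climacteric blastocysts, -1.87 and -2.15 in young blastocysts, -4.03 in climacteric ooplasts and -3.31 in young ooplasts. Neither ooplast array was well above background. On the mean of the 4 blastocyst arrays, Etv5 was at least 1.60-fold higher in blastocysts (means -1.47 in blastocysts and -3.67 in ooplasts, adjusted p = 0.0040). The climacteric arrays raised that mean, and the bound does not hold for young blastocysts alone. The fitted Etv5 difference of 2.20 ± 0.43 was 1.30 without the climacteric ooplast array and 3.10 without the young ooplast array. The second Etv5 probe was above background on 1 blastocyst array only. With the background corrected by normexp, which compresses dim probes, the calls of Etv5 (0.31, adjusted p = 0.343), Fgfr2 (0.09, adjusted p = 0.754) and Fgfr3 (0.20, adjusted p = 0.505) were lost.

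**Figure D3:**
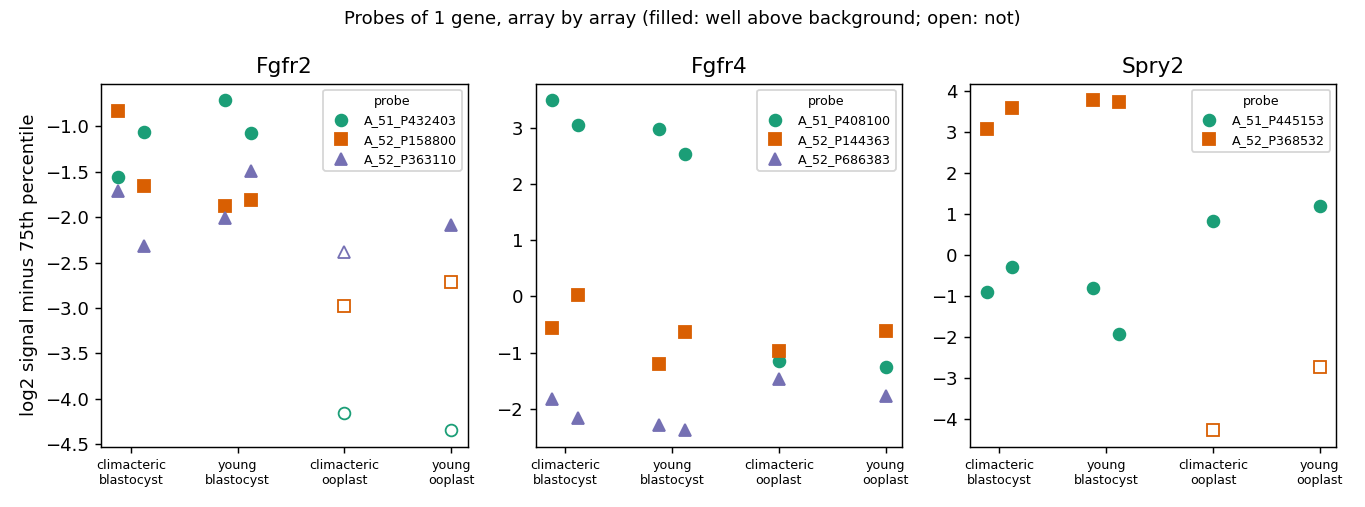
Levels of the separate probes of Fgfr2, Fgfr4 and Spry2 on each array (y axis, log2 signal minus the 75th percentile; filled, well above background; open, not); only the pattern over arrays can be compared between probes. In Spry2, A_52_P368532 is higher and A_51_P445153 lower in blastocysts than in ooplasts, and of the 3 Fgfr4 probes only A_51_P408100 passed the threshold.

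Over every probe fitted, 10 of the 16 fitted FGF signalling probes were higher and 3 lower, 6 of the higher ones having entered only through the blastocyst arrays, where 35.6% of all 20982 fitted probes were higher and 38.2% lower. Among genes with a probe well above background on all 6 arrays, none entered through 1 stage only. That set still depends on detection, because it leaves out every probe that was not detected in both stages. It leaves out Etv5, Fgfr2, Fgfr3 and the brightest Spry2 probe. There Dusp6, Fgfr4 and Grb2 were higher, and Fgfr1 and Spry2 were lower, Spry2 through A_51_P445153. In the whole of that set, 29.4% of 10907 genes were higher and 44.9% lower.

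Promoter windows of 250 bases before the annotated start were available for 8 of the 10 genes, 11 windows in all, from RefSeq on GRCm38.p6. The windows of Dusp6, Fgfr4 and Spry2, whose brightest probes differed widely between stages, are shown 5′ to 3′ on the strand of the gene. Capitals mark CGGAA or its reverse complement TTCCG, the core bound by Ets factors such as Etv5. Dusp6 lies at chr10:99262981-99263230 (plus strand), Fgfr4 at chr13:55152568-55152817 (plus strand) and Spry2 at chr14:105896820-105897069 (minus strand).
Dusp6: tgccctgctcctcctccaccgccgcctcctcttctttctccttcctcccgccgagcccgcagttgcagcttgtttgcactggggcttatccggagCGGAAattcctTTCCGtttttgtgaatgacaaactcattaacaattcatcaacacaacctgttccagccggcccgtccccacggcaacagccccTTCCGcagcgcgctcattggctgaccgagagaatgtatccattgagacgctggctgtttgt
Fgfr4: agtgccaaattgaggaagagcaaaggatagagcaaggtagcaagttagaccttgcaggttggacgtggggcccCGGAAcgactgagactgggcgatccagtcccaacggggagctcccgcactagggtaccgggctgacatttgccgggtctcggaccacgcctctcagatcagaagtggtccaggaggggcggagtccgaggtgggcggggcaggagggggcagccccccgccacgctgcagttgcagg
Spry2: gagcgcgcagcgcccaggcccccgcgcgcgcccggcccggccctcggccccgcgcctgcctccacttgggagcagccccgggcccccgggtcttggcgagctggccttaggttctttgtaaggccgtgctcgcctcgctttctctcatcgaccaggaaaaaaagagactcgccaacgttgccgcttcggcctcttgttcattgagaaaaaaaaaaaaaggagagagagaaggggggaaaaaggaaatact
The Dusp6 window held 3 matches, the Fgfr4 window held 1 and the Spry2 window 0. Of all 32851 windows of this length, 25.2% held at least 1 match, and among the FGF signalling genes 2 of the 11 windows did. The GC box GGGCGG, on either strand, was in 32.7% of all windows and in 5 of the 11, belonging to Etv5, Fgf4, Fgfr3 and Fgfr4, and none of these overlapped an Ets core. The AP-1 site TGACTCA and the cAMP response element TGACGTCA were in 4.46% and 1.55% of all windows and in 0 of the 11. The window of Dusp6 was 56.4% G or C, that of Fgfr4 64.0% and that of Spry2 62.4%, where the median over all windows was 52.4%. A match is a description of letters only.

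The other genes of the pathway were read from a list of 90, of which 89 had a probe and 69 were tested by stage. Of these, 15 were higher in blastocysts, 37 lower and 17 not past the threshold, or 21.7% higher and 53.6% lower, beside 35.5% and 39.0% of all genes tested. Their median difference was -0.99, beside -0.26 over all genes tested. These are scaled levels, and a lower level can go with a signal that is not lower. Of the 51 pathway genes with a probe above background on all 6 arrays, 8 were higher and 30 lower, beside 29.4% and 44.9% of all such genes. Each pathway gene was read from its brightest probe, though many had several, and the other probes are not reported here. With every probe fitted, 18 pathway genes were higher and 42 lower on any probe. Genes given below as a bound (Fgf5, Sos1, Hras, Nf1 and Dusp4) entered the test only through the stage in which they were detected, which favours a difference. Of the other called genes, Sdc4, Klb, Gab1, Nras and Fgf10 likewise entered only through the blastocyst arrays. Fgf6, Fgf9, Fgf14, Fgf17, Sdc2, Etv1 and Elk4 entered only through the ooplast arrays. The counts by role below include the calls of these genes. The p-values of all these genes add no support. Of 11 tested ligands, 1 was higher and 8 lower. Fgf8, an early morphogen of the gastrula, was at 6.16 ± 0.53 in blastocysts (SD, n = 4) and 8.99 ± 0.68 in ooplasts (SD, n = 2), a difference of -2.83 ± 0.23 (adjusted p = 8.14e-05). Fgf18 differed by -2.50 ± 0.37 (adjusted p = 0.00115). Fgf9, another ligand called lower (-3.27 ± 0.47, adjusted p = 0.000964), was well above background on 1 of the 4 blastocyst arrays. Fgf5, a marker of the postimplantation epiblast, was above background in ooplasts only and was at least 3.94-fold lower in blastocysts (means -5.85 in blastocysts and -1.73 in ooplasts, adjusted p = 2.66e-05).

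Of 8 tested co-receptors and decoys, 2 were higher and 5 lower, and the syndecans, which carry heparan sulphate at the cell surface, differed in direction. Sdc4 read 6.01 and 6.33 in climacteric blastocysts, 6.11 and 6.49 in young blastocysts, -1.91 in climacteric ooplasts and -1.33 in young ooplasts (7.86 ± 0.28, adjusted p = 9.29e-06), with 1 ooplast array above background. Sdc1 was above background on all arrays and read -1.89 and -1.95 in climacteric blastocysts, -3.05 and -2.24 in young blastocysts, 4.17 in climacteric ooplasts and 3.48 in young ooplasts (-6.11 ± 0.31, adjusted p = 1.57e-05). Klb, the co-receptor used by Fgfr4, was higher (1.33 ± 0.39, adjusted p = 0.0201), with 1 ooplast array above background. Among 8 tested heparan sulphate enzymes 2 were higher and 3 lower. The chain polymerase gene Ext1 was lower by -4.68 ± 0.47 (adjusted p = 0.00018) and the 2-O-sulphotransferase gene Hs2st1 by -4.30 ± 0.29 (adjusted p = 3.89e-05), while Hs6st1 was higher by 0.94 ± 0.27 (adjusted p = 0.0192).

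Around Grb2, 5 of 15 tested genes of the adaptor and Ras step were higher and 4 lower. Of the higher ones, Gab1, Nras, Sos1 and Hras entered only through the blastocyst arrays, and of the lower ones Nf1 only through the ooplast arrays. Frs2, the docking protein between receptor and Grb2, read 6.33 and 6.53 in climacteric blastocysts, 7.13 and 6.64 in young blastocysts, 0.71 in climacteric ooplasts and 0.46 in young ooplasts, so the stages were 6.07 ± 0.30 apart (adjusted p = 1.52e-05). Sos1, which Grb2 brings to Ras, was at least 3.50-fold higher in blastocysts (means -0.33 in blastocysts and -4.23 in ooplasts, adjusted p = 7.36e-05). Hras was at least 7.33-fold higher in blastocysts (means 0.73 in blastocysts and -3.82 in ooplasts, adjusted p = 3.46e-05). Nf1, which turns Ras off, was at least 33.7-fold lower (means -5.78 in blastocysts and 1.36 in ooplasts, adjusted p = 2.86e-05). The phosphatase gene Ptpn11, which promotes Ras activation, was lower (-1.63 ± 0.30, adjusted p = 0.00284). Its signals before scaling were not lower in blastocysts, so the lower level of Ptpn11 rests on the scaling.

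In the MAP kinase cascade, 4 of 10 tested genes were higher and 6 lower, and the paralogues of the MEK tier differed in direction. Map2k2 was higher (2.50 ± 0.37, adjusted p = 0.00115) and Map2k1 lower (-3.09 ± 0.30, adjusted p = 0.000157). Araf, a kinase that activates MEK, was higher (5.52 ± 0.33, adjusted p = 2.41e-05). Of 8 further feedback inhibitors tested, 1 was higher and 5 lower. The phosphatase genes Dusp4 and Dusp7 lay at opposite ends. Dusp4 was at least 78.3-fold higher in blastocysts (means 4.20 in blastocysts and -2.44 in ooplasts, adjusted p = 1.83e-05). Dusp7 read -0.20 and -2.45 in climacteric blastocysts, -2.57 and -2.61 in young blastocysts, 8.55 in climacteric ooplasts and 7.80 in young ooplasts (-10.13 ± 0.61, adjusted p = 2.5e-05). Spred1, a Sprouty-related inhibitor, was lower (-4.79 ± 0.31, adjusted p = 3.32e-05). Of 9 tested transcriptional effectors other than Etv5, 0 were higher and 6 lower, including Ets2 (-2.64 ± 0.41, adjusted p = 0.00129) and Etv1 (-4.92 ± 0.65, adjusted p = 0.000672), a close relative of Etv5 that was above background on 1 blastocyst array.

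**Figure D4:**
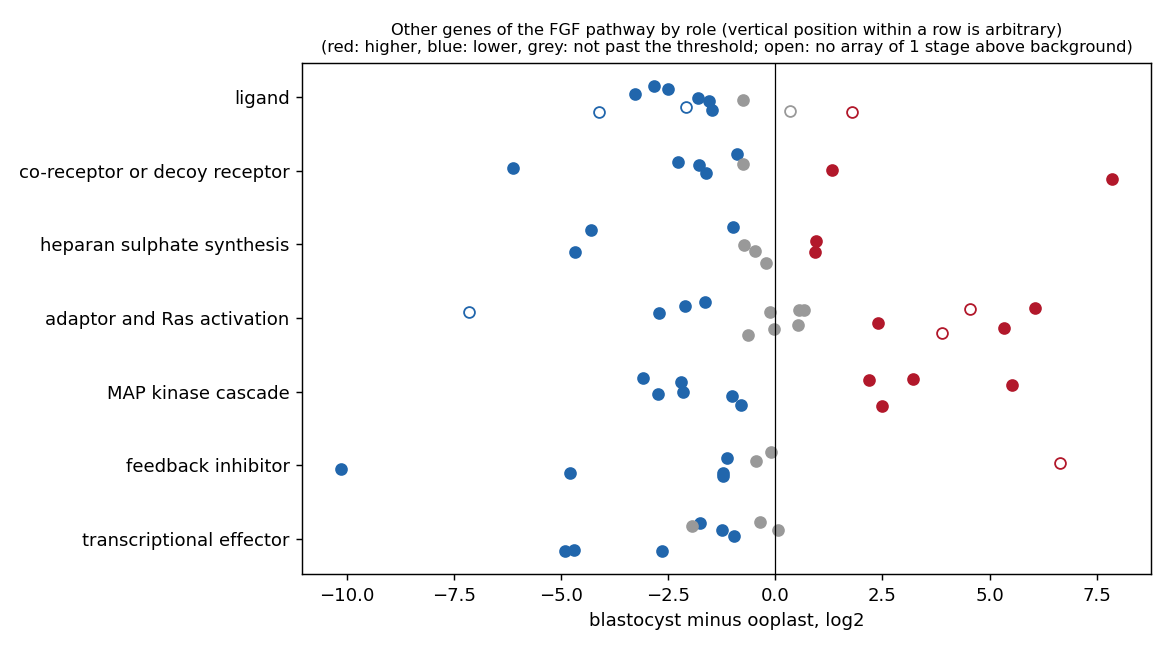
Difference between stages (x axis, blastocyst minus ooplast, log2) of the 69 tested pathway genes outside the 10, grouped by role; each point is 1 gene. Of them 15 were higher and 37 lower in blastocysts, and 5 of the higher ones lie in the adaptor row and 4 in the MAP kinase row.

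Nearness was measured by distance of the 6 levels among 10907 genes, with clone, accession and predicted names passed over. The genes nearest to Dusp6 were Acaa1a and Dpagt1 (root mean square distance 0.10 and 0.15 log2 after centring each gene). Those nearest to Grb2 were Mapk13 and Dcxr (0.068 and 0.083). Fgfr4 lay nearest to Svbp and Adam15 (0.14 and 0.15), and Fgfr1 to Fiz1 and Cilp2 (both 0.049). With so few arrays and a large stage difference, nearness over 6 levels describes these libraries only.

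Age moved none of these genes past the threshold. In climacteric against young blastocysts, 0 of the 8 tested FGF signalling genes were called, and 0.0% of all 15971 genes were (limma, adjusted p under 0.05), with 864 genes at an unadjusted p under 0.05. Etv5 had the largest difference of the 8. Its levels of -0.95 and -0.90 in climacteric blastocysts lay above those of -1.87 and -2.15 in young blastocysts, by 1.09 ± 0.29 (unadjusted p = 0.0117, adjusted p = 0.666). The Etv5 difference was 0.93 on the slide of the first replicates and 1.25 on that of the second, and it was above 0 under 13 of 13 alternative settings (0.79 to 1.24, lowest adjusted p 0.534). These settings reuse the same probe and arrays, so they add no independent support. The other Etv5 probe differed by -1.92, with only young blastocyst replicate 1 above background. Fgfr4 had an age difference of 0.52 ± 0.33 (adjusted p = 1.00), with 0.52 on each slide and 0.65 and 0.34 on its other probes. Fgfr2 read 0.60 ± 0.37 on its brightest probe but -0.42 and -0.27 on the others, and Spry2 read -0.42 ± 0.32 on its brightest probe and 0.77 on the other, so these genes had no single sign. Dusp6 differed by 0.01 ± 0.40, Fgfr1 by 0.03 ± 0.30, Grb2 by -0.00 ± 0.28 and Fgfr3 by -0.40 ± 0.37, each with an adjusted p of 1.00. At this number of arrays a difference of the size of the standard errors was not detectable.

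Climacteric and young ooplasts had 1 array each and were not tested. Dusp6 was at 2.12 in climacteric ooplasts and 3.09 in young ooplasts, a difference of -0.98, or 1.97-fold. Fgfr1 differed by 0.53, Grb2 by 0.30, Fgfr4 by 0.11 and Spry2, on the probe detected in ooplasts, by -0.35. Of these 5 measured genes 0 reached a 2-fold difference, where 17.2% of 12289 genes did. The age difference in blastocysts minus that in ooplasts was tested for 8 genes, and 0 were called where 0.852% of all genes were. Etv5 had the largest such value, 1.81 ± 0.50 (adjusted p = 0.365), with neither ooplast array above background.

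Some markers of macrophages stood out on 1 of the climacteric blastocyst arrays, and more of them on the climacteric ooplast array. Of 8 macrophage genes, 6 and 4 were well above background in climacteric blastocysts, 4 and 4 in young blastocysts, 7 in climacteric ooplasts and 4 in young ooplasts. Their summed level was 5.25 and 1.35 in climacteric blastocysts, 1.44 and 1.59 in young blastocysts, 5.18 in climacteric ooplasts and 1.54 in young ooplasts. Lyz2, the macrophage lysozyme gene, read 5.07 and -6.02 in climacteric blastocysts and -5.58 and -3.77 in young blastocysts. It made up most of the sum of 5.25 on climacteric blastocyst replicate 1. Fcer1g, Cd68 and Tyrobp were also highest there among the blastocyst arrays. Csf1r and Cd14 lay within the range of the other blastocyst arrays, and Adgre1 and Itgam were at background on every blastocyst array. On the same arrays Etv5 read -0.95 and -0.90 in climacteric blastocysts and -1.87 and -2.15 in young blastocysts. The part of macrophage RNA in the age differences was not tested.

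**Figure D5:**
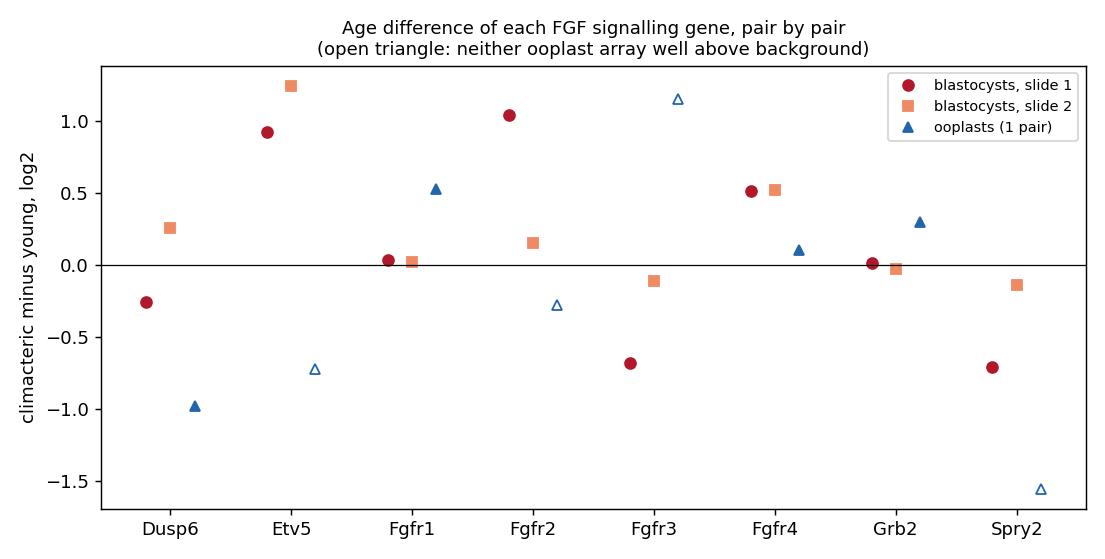
Age difference of each tested FGF signalling gene (y axis, climacteric minus young, log2) in the blastocyst pair on each slide and in the single ooplast pair; open triangles mark genes with neither ooplast array above background. Both blastocyst pairs of Etv5, Fgfr1, Fgfr2 and Fgfr4 lie above 0, both of Fgfr3 and Spry2 below 0, those of Dusp6 and Grb2 on opposite sides of 0, and 0 genes were called.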

How the data were processed

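Total RNA of 6 samples was amplified, labelled with Cy3 and hybridised to 1 array each, per the labels' protocols. Per the file headers, the authors extracted spot intensity with Agilent Feature Extraction 9.5.1.1 (9.5 per the submitters' processing notes), and the deposited processed signal intensity was background-subtracted and not scaled between arrays; probe positions are on mm8. The value table that the authors deposited, in log2, served as an alternative.

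Levels were log2 of processed signal minus the 75th percentile of the array's non-control spots. Spots of a probe were averaged without outlier flags, and saturated spots were kept. A probe was used if each array of 1 or more of the groups compared showed it well above background, and the brightest represented its gene. RefSeq (GRCm38.p6) was used for names and promoter windows only: of 41174 probes, 24375 were named by accession. Exon and UTR positions are not given, since no mm8 annotation was used here.

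Stage (all 6 arrays, age as a term), age in blastocysts (4 arrays) and age by stage were fitted over all genes with limma 3.58.1 in R 4.3.3 (lmFit, eBayes, two-sided, Benjamini-Hochberg, 0.05). The stage fit was tried on simulated levels of genes above background on all 6 arrays. That trial does not cover dim probes or the scaling of the arrays. The ooplast ages have 1 array each and no test. Named genes were the 9 measured genes with every probe, and by role the tested pathway genes with the largest called differences in each direction plus those with a bound; some of these are not reported here. The 10 genes, the lists and the tests were chosen with earlier results of these data known. Alternatives were other scalings, background corrections, filters and probe rules, slide as a block, and each array left out. Replicate numbers coincide with slides: replicates 1 and 2 differed between the age groups with a correlation of 0.17 over 15971 genes, and 2 pairs are too few to show pairing.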

Additional observations from a re-analysis of the deposited data

Results flagged for a closer look

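A pair of probes had 1 blastocyst array far from the other 3, with a gap to the nearest array, as a share of the whole range above Dixon's critical value for 4 samples. For Fgfr1 probe A_52_P552062 the share was 0.904, with levels of -3.61 and -3.69 in climacteric blastocysts and -2.34 and -3.74 in young blastocysts. For Etv5 probe A_52_P631015 the share was 0.903, with levels of -6.05 and -5.74 in climacteric blastocysts and -2.26 and -5.68 in young blastocysts. In both, young blastocyst replicate 1 stood apart. Chance flags about 1 in 20 groups. Neither probe stood for its gene: A_52_P552062 was well above background on 2 blastocyst arrays and A_52_P631015 on 1.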

How the results depend on the processing

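Dusp6 and Grb2 were called higher under each alternative run with 1 probe or mean per gene, with Dusp6 at 3.60 to 4.58 and Grb2 at 2.23 to 2.76 (log2, blastocyst minus ooplast). Fgfr4 was 0.20 on A_52_P144363 (adjusted p = 0.637), turned to -0.55 on probe A_52_P686383 (adjusted p = 0.0902), was 3.58 with normexp and was 1.29 with its probes averaged. Spry2 turned to -1.99 on A_51_P445153, both with every probe fitted (adjusted p = 0.0073) and with probes above background on all arrays (adjusted p = 0.0046), and was 4.86 with normexp and 2.52 with its probes averaged. The 7 genes called higher became 4 with normexp and 3 with probes above background on all arrays (Spry2 was then called lower, and Etv5, Fgfr2 and Fgfr3 were no longer tested). The 1 gene called lower, Fgfr1, became 0 under quantile normalization, in the authors' table, with slide as a replicate block and within slide 1 (-0.61, adjusted p = 0.218), and 2 without a filter on dim probes (with Spry4, which was at background), with probes above background on all arrays and with every probe fitted. Without each array in turn, 6 to 7 genes were higher, 0 to 1 lower, and 9569 to 11253 genes were called in all. The total of 11620 called genes was 19945 without a filter on dim probes, where more genes were tested, and 10770 with the replicate block. The 15 pathway genes called higher were 8 with probes above background on all arrays and 13 to 14 without each array in turn, and the 37 called lower were 31 to 37. Age in blastocysts gave 0 calls under each alternative, the replicate block included (1102 genes at an unadjusted p under 0.05), and the age by stage term gave 0 calls among the 8 genes. Without the filter, 2 genes at background (Fgfr3 and Spry2) were 2-fold apart between ooplast ages, against 0 with it. The cause of these changes was not tested. Dim probes, near the lowest signal that counts as above background, limit what Etv5, Fgfr2, Fgfr3 and Spry4 can show.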
